A study of Homo sapiens with 24 samples.

Results

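Interferon-stimulated genes were followed across 3 lines of THP-1 cells, which come from a human monocytic leukaemia. The module is a list of 46 genes of known interferon response, given by name and drawn up with earlier results of these data known. Of these, 45 had a probe set that carries a single gene symbol, out of 18417 genes measured in all. GBP1 lay in a probe set with several symbols and is not analysed here. Older names were followed, so that the probe set named DDX58 stands for RIGI.

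All 3 lines carried a lentiviral cassette with a tetracycline-inducible promoter and had been selected with G418 at 1 mg/ml. The cassette held FLAG-tagged NOD1 in the first line, FLAG-tagged NLRP4 in the second and no insert in the vector line. Cells stood at 50000 per well, with doxycycline (DOX) at 1 µg/ml for 6 h or without it, which gave 6 groups of 4 Affymetrix Human Gene ST arrays, an uninduced and a DOX group for each of the vector, NLRP4 and NOD1 lines. Virus was used so that under 30% of cells were infected, and the labels do not say whether a line is a clone or a pool. Plate positions were set beforehand without randomization and array numbers run line by line, so a line and its place in that order cannot be told apart. Nothing states that the 4 wells of a group were separate cultures, so p-values speak only to the scatter among these wells, and that scatter may be technical.

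Type I interferons bind a receptor of IFNAR1 and IFNAR2, and signalling through the kinases JAK1 and TYK2 leads to the complex ISGF3, which contains IRF9 and binds the interferon-stimulated response element (ISRE) in promoters of genes that restrict viruses. Interferon gamma acts through the kinases JAK1 and JAK2 and another promoter element, GAS. Monocytic cells are known to respond strongly to both kinds.

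The motifs were searched in RefSeq promoter windows of 250 bases before to 50 bases after a start (GRCh38.p14), on both strands. A gene can have several starts, and the members had 51 windows in all. A gene was counted when any of its windows held a match. The ISRE was spelled GAAANNGAAA and GAS was spelled TTCNNNGAA, with overlapping matches counted. Windows were held for 37 of the 45 measured members, and GBP2, IFIT2, IRF7, MX2, OAS2, OASL, TRIM22 and USP18 have none in the table used. The ISRE letters occurred in 26 of 37 members (70.3%) and in 1195 of 27305 genes with a window (4.38%). GAS letters occurred in 13 of 37 members (35.1%) and in 9.38% of genes. Stretches of 160 bases that end just before a start are shown for 6 members. They were picked, by lowest p without DOX in each direction, only among members with an ISRE match inside the stretch. That each carries the element was therefore fixed by the choice. In the comparisons of the NOD1 and vector lines described further on, ADAR was higher, RIGI and XAF1 were lower, and all had 0 matches. IFI27, IFITM3 and IFI6 were higher in the NOD1 line than in the vector line, and SAMD9, DDX60 and HERC5 were lower. Each is written 5′ to 3′ in the gene's own direction, and capitals mark ISRE matches on either strand. They lie at chr14:94110576-94110735 (plus strand, IFI27), chr11:320861-321020 (minus, IFITM3), chr1:27672193-27672352 (minus, IFI6), chr7:93117980-93118139 (minus, SAMD9), chr4:168318753-168318912 (minus, DDX60) and chr4:88456959-88457118 (plus, HERC5). For IFI27 and DDX60 the start used lies inside the gene's RefSeq span and not at its outer end.
IFI27: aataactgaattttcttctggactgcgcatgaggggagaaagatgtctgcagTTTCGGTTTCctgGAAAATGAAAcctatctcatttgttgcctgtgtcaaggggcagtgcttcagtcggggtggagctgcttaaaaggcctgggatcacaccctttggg
IFITM3: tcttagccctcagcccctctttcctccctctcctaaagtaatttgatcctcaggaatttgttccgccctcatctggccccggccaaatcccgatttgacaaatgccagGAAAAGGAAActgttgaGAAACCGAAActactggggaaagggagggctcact
IFI6: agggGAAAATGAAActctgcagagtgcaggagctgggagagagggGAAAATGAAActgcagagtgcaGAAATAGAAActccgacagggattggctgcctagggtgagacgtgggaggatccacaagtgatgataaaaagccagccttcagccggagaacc
SAMD9: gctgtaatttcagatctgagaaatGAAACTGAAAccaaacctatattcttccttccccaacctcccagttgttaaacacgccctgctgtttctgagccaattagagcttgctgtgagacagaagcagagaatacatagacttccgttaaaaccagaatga
DDX60: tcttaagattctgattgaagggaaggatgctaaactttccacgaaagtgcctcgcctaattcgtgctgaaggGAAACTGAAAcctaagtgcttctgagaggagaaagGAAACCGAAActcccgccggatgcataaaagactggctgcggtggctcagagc
HERC5: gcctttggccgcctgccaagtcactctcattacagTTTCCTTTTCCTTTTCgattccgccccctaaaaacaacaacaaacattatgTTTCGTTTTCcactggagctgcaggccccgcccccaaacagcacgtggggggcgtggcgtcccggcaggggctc

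IFI6 and HERC5 hold 3 matches each, IFI27, IFITM3 and DDX60 hold 2 each, and SAMD9 holds 1. In HERC5 the 2 farther matches overlap, and they stand as 1 run of capitals. Among members with a window, 8 of 9 that were higher in the NOD1 line in both comparisons with the vector line held ISRE letters. The same held for 3 of 5 lower in both, 4 of 7 called in 1 of the 2 and 11 of 16 called in neither. A match is a run of letters and not a measured site.

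Arrays of 1 group correlated at 0.982 to 0.993 across genes. The induced genes stood where the labels put them: the NOD1 probe set had a log2 signal of 12.75 ± 0.18 (SD, n = 4) in its own line with DOX and 8.74 ± 0.19 without, and NLRP4 at 11.93 ± 0.26 and 8.09 ± 0.43 in its own line. In the uninduced vector line NOD1 stood at 8.33 ± 0.19 and NLRP4 at 6.92 ± 0.33. Each gene was thus higher in its own line even without DOX, NOD1 by 0.40 (limma adjusted p = 0.0299) and NLRP4 by 1.17 (limma adjusted p = 0.0405). All log2 signals are after quantile normalization, since the deposited medians of the gene table ran from 8.25 to 9.03. Over all arrays the members' mean levels ran from 6.69 (IFIT5) to 11.39 (EIF2AK2), and 8 of 45 lay below 7.80, the 25th percentile of the genes' mean levels. No background level was measured here, so a fold whose lower group lies below 7.80 is written as "at least", and differences of such dim genes may be understated.

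Averaged over the 45 members, the log2 level was 9.13 ± 0.06 (SD, n = 4) in the NOD1 line with DOX, 9.00 ± 0.05 in the NOD1 line without DOX, 8.87 ± 0.06 and 8.85 ± 0.15 in the vector line with and without DOX, and 8.71 ± 0.07 and 8.72 ± 0.03 in the NLRP4 line with and without DOX. The 4 NOD1 DOX arrays (9.04 to 9.17) lay above all vector arrays with and without DOX. The uninduced NOD1 arrays (8.94 to 9.04) overlapped the uninduced vector arrays (8.65 to 9.00), and the 2 NLRP4 groups overlapped each other. With DOX the NLRP4 arrays (8.61 to 8.76) lay wholly below the vector arrays (8.81 to 8.93). Without DOX the NLRP4 arrays (8.70 to 8.76) lay within the range of the vector arrays. Fewer cells of a type and less RNA per cell cannot be told apart in such bulk values.

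**Figure D1:**
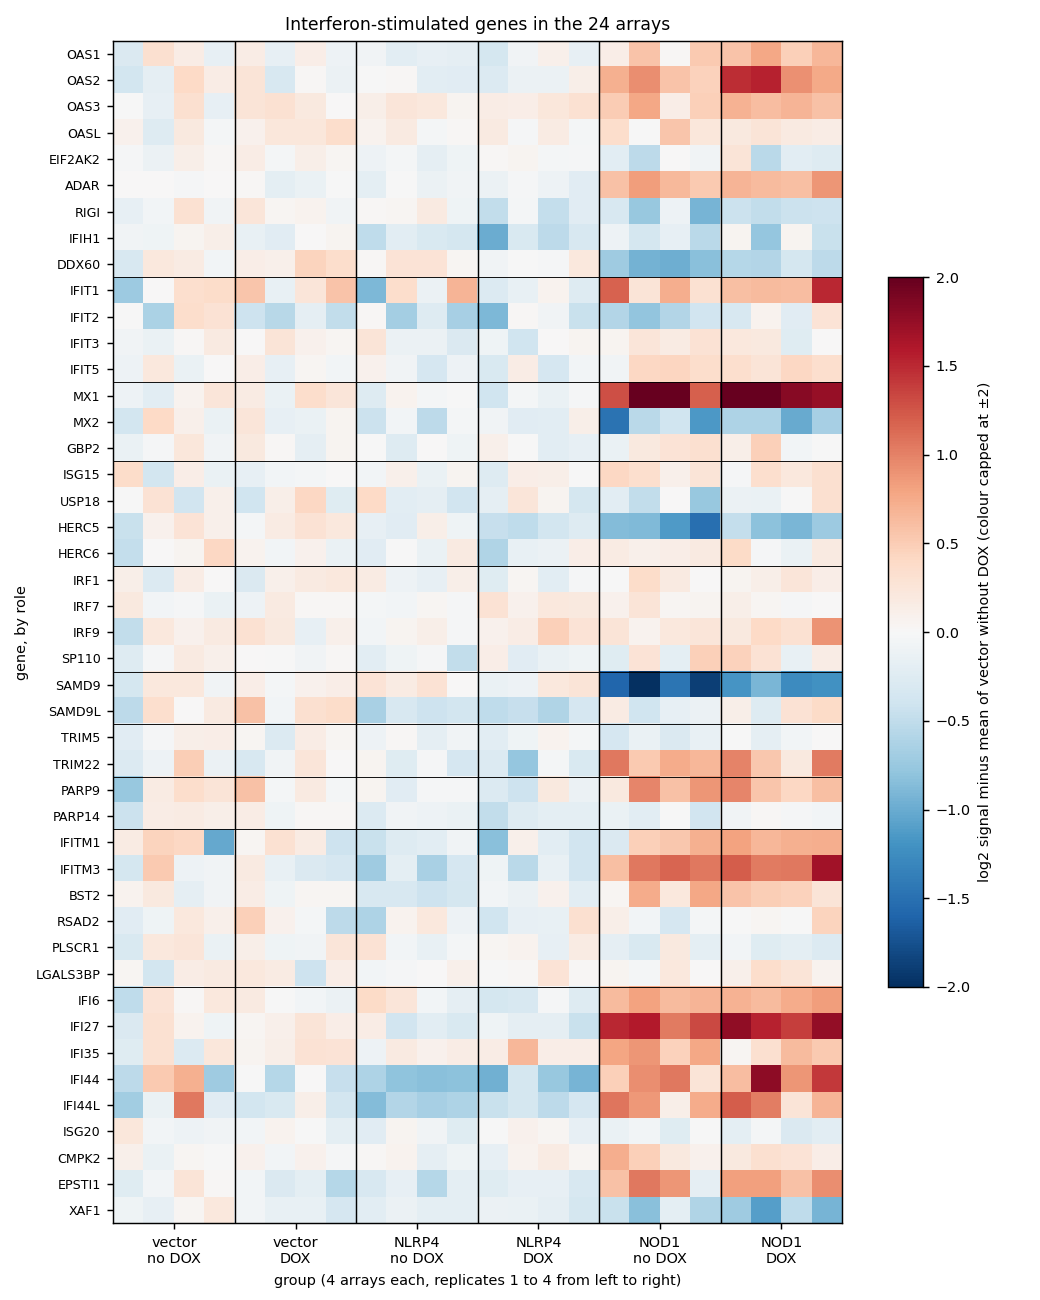
Each column is 1 of 24 arrays and each row 1 of 45 interferon-stimulated genes, in blocks by role. Colour gives the log2 signal minus the mean of the uninduced vector arrays, capped at 2 in both directions. The 8 NOD1-line columns hold the strongest colours, red for MX1 and IFI27 and blue for SAMD9.

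The comparison of the NOD1 line with the vector line, made separately without and with DOX, shows how the module stands in cells that carry inducible NOD1. Members moved in both directions. Of the members called in both comparisons, MX1, IFI27 and IFITM3 had the 3 largest positive differences without DOX and SAMD9, HERC5 and MX2 the 3 largest negative ones. Without DOX, 14 of 45 members were higher and 7 lower (limma adjusted p under 0.05), 46.7% of members against 24.9% of all genes. With DOX 15 were higher and 6 lower, 46.7% of members against 25.8% of all genes. By direction, the background was 13% higher and 11.9% lower without DOX, and 13.6% higher and 12.2% lower with DOX. The members' median log2 difference was 0.19 in both comparisons, where the median of all genes was 0.03 without and 0.02 with DOX.

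The 2 comparisons share no array. Of the members higher without DOX 78.6% were also higher with DOX, which is 73.3% of those higher with DOX, and the same shares over all genes were 72.9% and 69.9%. The 11 genes are OAS2, OAS3, ADAR, MX1, TRIM22, IFITM3, BST2, IFI6, IFI27, IFI44L and EPSTI1. For the lower genes the shares were 85.7% and 100% in the module and 80.4% and 78.6% over all genes, and the 6 genes are RIGI, DDX60, MX2, HERC5, SAMD9 and XAF1. The differences between these shares and those of all genes were not tested.

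**Figure D2:**
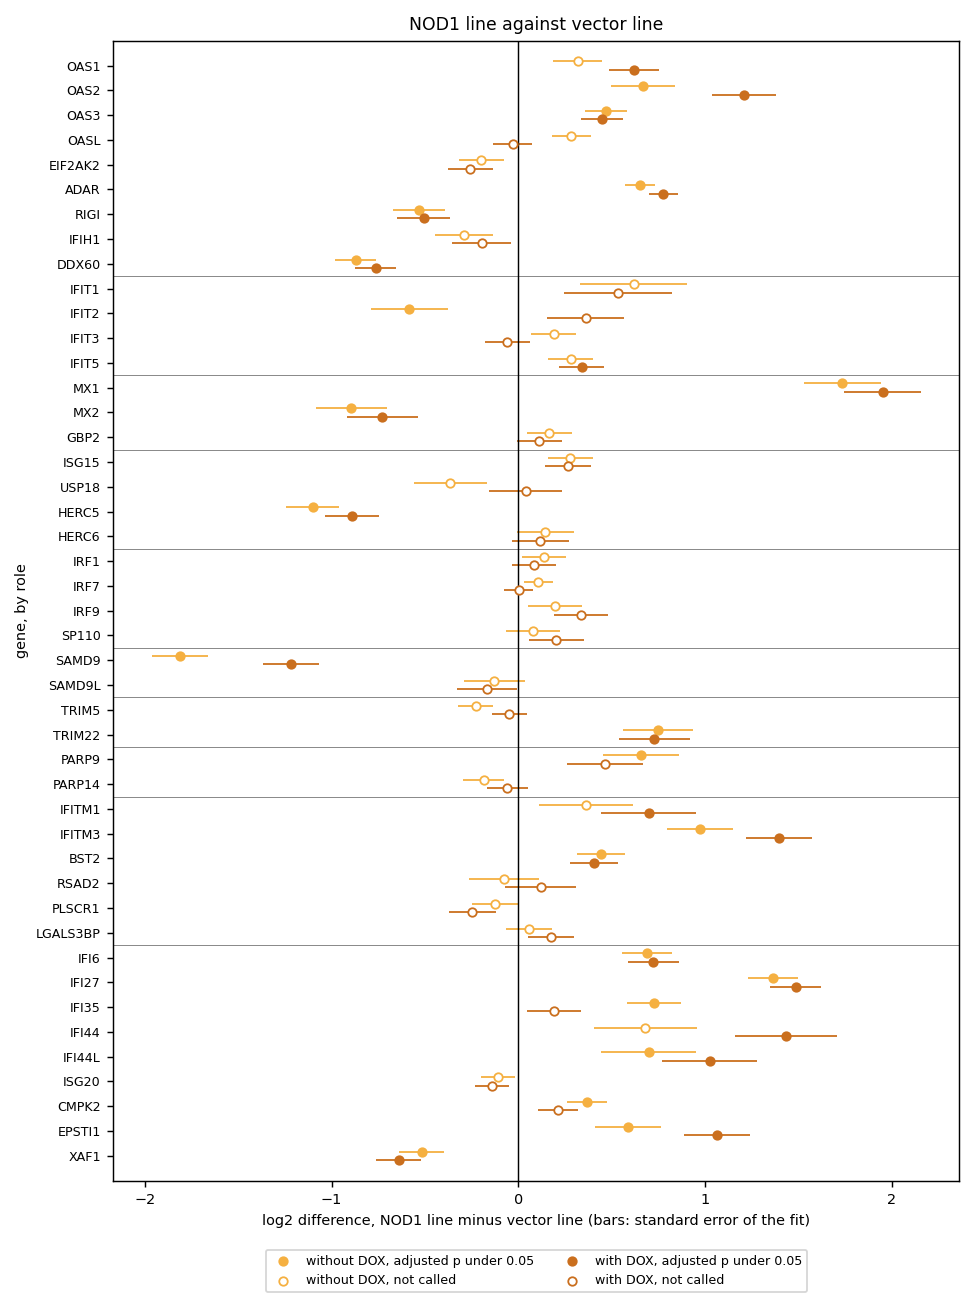
Points give the log2 difference between the NOD1 line and the vector line for each of 45 members, without DOX (light) and with DOX (dark), with the standard error of the fit as bars and filled points for adjusted p under 0.05. MX1 lies farthest to the right at 1.74 and 1.95, and SAMD9 farthest to the left at −1.81 and −1.22.

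Among the genes of double-stranded RNA sensing and response, 9 were measured, and 3 were higher and 2 lower without DOX, 4 higher and 2 lower with DOX. The shares called were 55.6% and 66.7%, against 24.9% and 25.8% of all genes. The OAS enzymes make 2-5A, the messenger that activates RNase L. OAS2 stood at 8.21, 8.40, 8.96 and 8.71 in the uninduced vector arrays and at 9.28, 9.50, 9.14 and 9.03 in the uninduced NOD1 arrays. With DOX it stood at 8.83, 8.25, 8.60 and 8.46 in the vector line and at 10.05, 10.11, 9.49 and 9.32 in the NOD1 line. All NOD1-line arrays lay above all vector arrays in both settings. The differences were 0.67 (SE 0.17, limma adjusted p = 0.00471) and 1.21 (SE 0.17, limma adjusted p = 9.16e-06), 1.59-fold and 2.31-fold. OAS3 was higher by 0.47 (SE 0.11, limma adjusted p = 0.00275) and 0.45 (SE 0.11, limma adjusted p = 0.00364), while OAS1 was called only with DOX, at 0.62 (SE 0.13, limma adjusted p = 0.000991) against 0.32 without (limma adjusted p = 0.0881). OASL was at 0.28 (limma adjusted p = 0.0503) and −0.03, not called. Leaving out the 4 dimmest arrays ended the uninduced calls of OAS2 (limma adjusted p = 0.0541) and OAS3 (limma adjusted p = 0.0742). Array weights also ended that of OAS2 (limma adjusted p = 0.0548), a fit of the 2 compared groups alone that of OAS3 (limma adjusted p = 0.0541), and the values as deposited the OAS3 call with DOX (limma adjusted p = 0.189).

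ADAR, which edits adenosine to inosine in double-stranded RNA, had the smallest standard error of the higher genes. It stood at 10.68, 10.70, 10.66 and 10.68 in the uninduced vector arrays, and at 11.27, 11.52, 11.33 and 11.20 in the uninduced NOD1 arrays. With DOX the vector arrays stood at 10.70, 10.49, 10.55 and 10.67 and the NOD1 arrays at 11.36, 11.32, 11.28 and 11.56. The lines did not overlap, and the differences were 0.65 (SE 0.08, limma adjusted p = 1.61e-06) and 0.78 (SE 0.08, limma adjusted p = 1.55e-07). The cytosolic RNA sensors went the other way or were not called. RIGI was lower by 0.53 without DOX (limma adjusted p = 0.00600), with the groups overlapping, and by 0.51 with DOX (limma adjusted p = 0.00831), without overlap. Its uninduced call ended under 3 alternatives, namely no further normalization (limma adjusted p = 0.0825), a fit of the 2 compared groups alone (limma adjusted p = 0.0643) and leaving out the 4 dimmest arrays (limma adjusted p = 0.0577). IFIH1 (MDA5) was at −0.29 and −0.20 and the kinase EIF2AK2 (PKR) at −0.20 and −0.26, with none of these called.

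DDX60, a helicase-like protein linked to RNA sensing, stood at 9.14, 9.67, 9.62 and 9.41 in the uninduced vector arrays and at 8.74, 8.51, 8.47 and 8.63 in the uninduced NOD1 arrays. With DOX it stood at 9.59, 9.56, 9.90 and 9.81 in the vector line and at 8.89, 8.87, 9.10 and 8.94 in the NOD1 line. Every NOD1-line array lay below every vector array of its setting. The gene was lower by 0.87 (SE 0.11, limma adjusted p = 2.52e-06) and 0.76 (SE 0.11, limma adjusted p = 1.20e-05), 1.83-fold and 1.70-fold.

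The IFIT proteins bind viral RNA ends. Of the 4 members, IFIT2 was lower without DOX (−0.58, limma adjusted p = 0.0393) and at 0.36 with DOX, the other sign, not called (limma adjusted p = 0.227). IFIT5 was higher with DOX (0.34, limma adjusted p = 0.0387) and at 0.28 without DOX, not called (limma adjusted p = 0.0953). The IFIT2 call was lost when vector_noDOX replicate 1, 3 or 4 or NOD1_noDOX replicate 1, 2 or 3 was left out (−0.59 to −0.47, limma adjusted p from 0.061 to 0.141). The IFIT5 call was lost when vector_DOX replicate 2, 3 or 4 or NOD1_DOX replicate 1, 3 or 4 was left out (0.29 to 0.36, limma adjusted p from 0.0563 to 0.121), in the values as deposited (0.15) and with arrays centred on medians (0.19). IFIT1 was at 0.62 and 0.53 and IFIT3 at 0.19 and −0.06, not called. IFIT1 had the largest standard error of the 45 members, and its arrays ran from 6.54 to 7.64 in the uninduced vector line and from 7.86 to 8.77 in the NOD1 line with DOX, where replicate 4 stood far above the others.

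The dynamin-like GTPases MX1 and MX2 block virus replication, MX1 in the cytoplasm and MX2 at the nucleus. MX1 stood at 7.65, 7.53, 7.81 and 7.98 in the uninduced vector arrays and at 9.03, 10.14, 9.80 and 8.94 in the uninduced NOD1 arrays. With DOX the values were 7.90, 7.61, 8.10 and 7.98 in the vector line and 10.26, 10.09, 9.57 and 9.49 in the NOD1 line. The lines were far apart, and the uninduced NOD1 arrays spread over more than 1 log2 unit. MX1 was higher by 1.74 (SE 0.21, limma adjusted p = 1.06e-06) and 1.95 (SE 0.21, limma adjusted p = 2.34e-07), which is at least 3.33-fold without DOX and 3.87-fold with DOX.

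MX2 stood at 9.89, 10.65, 10.35 and 10.11 in the uninduced vector arrays and at 8.77, 9.70, 9.85 and 9.10 in the uninduced NOD1 arrays. With DOX it stood at 10.50, 10.08, 10.12 and 10.30 in the vector line and at 9.63, 9.63, 9.25 and 9.58 in the NOD1 line. All NOD1-line arrays lay below all vector arrays of the same setting. MX2 was lower by 0.89 (SE 0.19, limma adjusted p = 0.000935) and 0.73 (SE 0.19, limma adjusted p = 0.00521). The guanylate-binding protein GBP2 was at 0.17 and 0.11, not called, and it was the 1 member with 2 probe sets, whose other probe set was not called either.

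ISG15 is a ubiquitin-like protein that is joined to targets by HERC5 and removed by USP18. HERC5 stood at 8.73, 9.27, 9.46 and 9.29 in the uninduced vector arrays and at 8.31, 8.30, 8.05 and 7.68 in the uninduced NOD1 arrays. With DOX the vector arrays stood at 9.14, 9.35, 9.47 and 9.39 and the NOD1 arrays at 8.71, 8.36, 8.27 and 8.45. The lines did not overlap in either setting. HERC5 was lower by 1.10 (SE 0.14, limma adjusted p = 3.51e-06) and 0.89 (SE 0.14, limma adjusted p = 4.42e-05), 2.14-fold and 1.85-fold. ISG15 itself was at 0.28 (limma adjusted p = 0.104) and 0.27 (limma adjusted p = 0.120), USP18 at −0.36 and 0.04 and HERC6 at 0.14 and 0.12, none called.

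In the NOD1 line limma called 0 of 4 transcription regulators against the vector line, without or with DOX (24.9% and 25.8% of all genes). At an unadjusted p under 0.05 there were 0 without DOX and 1 with DOX, where 6304 and 6387 of 18417 genes had such a p. IRF9, the DNA-binding part of ISGF3, was at 0.20 and 0.34 (limma adjusted p = 0.376 and 0.0936). IRF7, which drives interferon alpha genes, was at 0.11 and 0.00, IRF1 at 0.14 and 0.09 and the nuclear body protein SP110 at 0.08 and 0.20.

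SAMD9 and SAMD9L encode cytosolic antiviral proteins that restrain cell growth. SAMD9 had the lowest p of the members without DOX. It stood at 10.56, 11.12, 11.12 and 10.83 in the uninduced vector arrays and at 9.32, 8.58, 9.45 and 9.02 in the uninduced NOD1 arrays. With DOX it stood at 11.05, 10.87, 11.00 and 11.03 in the vector line and at 9.73, 10.00, 9.65 and 9.70 in the NOD1 line. Without DOX the nearest arrays of the 2 lines stood more than 1 log2 unit apart, and with DOX the lines did not overlap either. The gene was lower by 1.81 (SE 0.15, limma adjusted p = 7.78e-09) and 1.22 (SE 0.15, limma adjusted p = 1.73e-06), 3.51-fold and 2.33-fold. SAMD9L was at −0.13 and −0.17, not called.

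TRIM22, a ring-finger antiviral protein, was higher by 0.75 (SE 0.19, limma adjusted p = 0.00414) and 0.73 (SE 0.19, limma adjusted p = 0.00483), and its call with DOX was lost in the values as deposited (limma adjusted p = 0.0551). TRIM5, the retroviral capsid sensor, was at −0.23 and −0.05. PARP9 was higher without DOX (0.66, limma adjusted p = 0.0194) and at 0.46 with DOX, not called, and the first call was lost without vector_noDOX replicate 1 (0.40, limma adjusted p = 0.101) or NOD1_noDOX replicate 2 (0.55) or 4 (0.58). In vector_noDOX replicate 1 PARP9 stood at 7.89 and in the other 3 arrays of that group at 8.80 to 8.99. Its paralog PARP14 was at −0.18 and −0.06, not called.

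Of the membrane and secreted proteins, IFITM3, which stops virus fusion in endosomes, stood at 8.20, 9.07, 8.44 and 8.47 in the uninduced vector arrays and at 9.15, 9.60, 9.71 and 9.60 in the uninduced NOD1 arrays. With DOX the values were 8.72, 8.39, 8.26 and 8.21 in the vector line and 9.76, 9.59, 9.60 and 10.22 in the NOD1 line. The NOD1-line arrays were above all vector arrays in both settings. IFITM3 was higher by 0.97 (SE 0.18, limma adjusted p = 0.000196) and 1.40 (SE 0.18, limma adjusted p = 2.47e-06), 1.96-fold and 2.63-fold. IFITM genes are near-identical copies, so their signals may be mixed.

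IFITM1 was at 0.36 without DOX, not called, and higher with DOX (0.70, limma adjusted p = 0.0442), and it lost the call when any of the 8 arrays other than vector_DOX replicate 2 was left out (0.55 to 0.75, limma adjusted p from 0.0581 to 0.154) and without the 4 dimmest arrays. BST2 (tetherin), which holds budding virus at the surface, was higher by 0.44 (limma adjusted p = 0.0109) and 0.41 (limma adjusted p = 0.0187). Leaving out NOD1_noDOX replicate 2 (0.34) or 4 (0.33) ended the first call, leaving out vector_DOX replicate 2 (0.37) or NOD1_DOX replicate 1 (0.36) ended the second, and centring arrays on medians ended both. RSAD2 (viperin) was at −0.08 and 0.12, PLSCR1 at −0.12 and −0.25 and LGALS3BP at 0.06 and 0.17, none called.

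The other interferon-induced proteins had 6 of 9 members higher and 1 lower without DOX, and 5 higher and 1 lower with DOX. The shares called were 77.8% and 66.7%, against 24.9% and 25.8% of all genes. IFI27, a small mitochondrial and membrane protein often read as an interferon marker, stood at 8.57, 9.17, 8.93 and 8.78 in the uninduced vector arrays and at 10.37, 10.45, 9.91 and 10.19 in the uninduced NOD1 arrays. With DOX the vector arrays stood at 8.90, 8.96, 9.13 and 8.99 and the NOD1 arrays at 10.64, 10.41, 10.25 and 10.63. No NOD1-line array came near the vector arrays. IFI27 was higher by 1.36 (SE 0.13, limma adjusted p = 9.46e-08) and 1.49 (SE 0.13, limma adjusted p = 2.76e-08), 2.57-fold and 2.80-fold.

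IFI6, a related small protein, stood at 8.10, 8.88, 8.64 and 8.82 in the uninduced vector arrays and at 9.24, 9.42, 9.25 and 9.30 in the uninduced NOD1 arrays. With DOX it stood at 8.79, 8.61, 8.55 and 8.50 in the vector line and at 9.31, 9.24, 9.35 and 9.44 in the NOD1 line. These groups did not overlap, and the differences were 0.69 (SE 0.14, limma adjusted p = 0.000430) and 0.72 (SE 0.14, limma adjusted p = 0.000243). IFI35 was higher without DOX (0.73, limma adjusted p = 0.000561) and at 0.19 with DOX (limma adjusted p = 0.397). EPSTI1 was higher by 0.59 (limma adjusted p = 0.0154) and 1.07 (limma adjusted p = 6.59e-05), and the first of these calls ended without vector_noDOX replicate 1 (0.51) or NOD1_noDOX replicate 2 (0.43) or 3 (0.49). CMPK2, a mitochondrial nucleotide kinase, was at 0.21 with DOX, not called, and higher without DOX (0.37, limma adjusted p = 0.0119), a call lost without NOD1_noDOX replicate 1 (0.25, limma adjusted p = 0.0668). XAF1, a partner of the apoptosis inhibitor XIAP, was lower by 0.52 (limma adjusted p = 0.00235) and 0.64 (limma adjusted p = 0.000285), and without further normalization its uninduced call was lost (limma adjusted p = 0.0511). ISG20 was at −0.11 and −0.14, not called.

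IFI44 and IFI44L varied widely among the uninduced vector arrays. IFI44 stood there at 7.25, 8.31, 8.50 and 7.06 and IFI44L at 6.49, 7.05, 8.23 and 6.95, while the uninduced NOD1 arrays stood at 8.26, 8.71, 8.83 and 8.04 for IFI44 and 8.24, 8.04, 7.30 and 7.93 for IFI44L. The groups overlapped for both genes. IFI44 was at 0.68 without DOX, not called (limma adjusted p = 0.0740). IFI44L was called at 0.70 (limma adjusted p = 0.0458) but not when vector_noDOX replicate 1, 2 or 4 or replicate 1, 2 or 4 of NOD1_noDOX was left out (0.47 to 0.68, limma adjusted p from 0.0879 to 0.188). With DOX the vector line was tighter, from 7.21 to 7.79 for IFI44 and from 6.82 to 7.30 for IFI44L, and the genes were higher by 1.43 (limma adjusted p = 0.000307) and 1.02 (limma adjusted p = 0.00349).

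Counting overlap, 8 members lay wholly above the vector arrays without DOX (17.8% of members, 11.1% of all genes) and 6 wholly below (13.3% and 9.84%). With DOX 16 lay wholly above (35.6% and 15.5%) and 6 wholly below (13.3% and 13.2%). The share below was near the background with DOX. In a fit of the 2 uninduced groups alone the calls of IFIT2, PARP9, BST2, IFI44L, CMPK2 and EPSTI1 ended, with limma adjusted p from 0.0604 to 0.175.

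Neighbouring members differed in some pairs and were called in the same direction in others. In RefSeq, MX2 and MX1 have no protein-coding gene between them, and MX2 was lower and MX1 higher in both comparisons. HERC5 lies next to HERC6 and SAMD9 next to SAMD9L, and in each pair the first was lower and the other not called in both comparisons. OAS1, OAS3 and OAS2 stand in a row, and all 3 were higher with DOX. IFI44L and IFI44, and likewise IFITM1 and IFITM3, are adjacent, and these 4 genes were higher with DOX. CMPK2 and RSAD2 are adjacent, and the first was called without DOX and the second in neither. MX2 and OAS2 have no promoter window in the table used, so no motif was searched for them.

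The NOD1 line was next set against the NLRP4 line, a second line with an inducible receptor. These comparisons use the same NOD1 arrays as those with the vector line, so the values are given side by side only. By limma, without DOX, 17 members were higher and 6 lower in the NOD1 line (51.1% of members, 27% of all genes), with a median of 0.26 against 0.04 over all genes. With DOX 18 were higher and 4 lower (48.9% of members, 25.4% of all genes), with a median of 0.26 against 0.02. MX1 was higher by 1.79 and 2.26, IFI27 by 1.55 and 1.84, IFITM3 by 1.44 and 1.54, ADAR by 0.75 and 0.82, and SAMD9 lower by 2.00 and 1.20. Limma adjusted p for these 10 differences lay between 1.44e-09 and 2.16e-06.

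HERC5 was lower than in the NLRP4 line without DOX (1.01, limma adjusted p = 8.67e-06) and at −0.34 with DOX (limma adjusted p = 0.0844). RIGI was likewise lower without DOX (0.57, limma adjusted p = 0.00295), a call lost in the values as deposited, and at −0.14 with DOX. IFI44 was higher by 1.45 and 1.92 and IFI44L by 1.38 and 1.21, with the NLRP4 arrays of IFI44 tight at 6.94 to 7.17 without DOX. BST2 was higher by 0.79 and 0.52. SAMD9L was called here with DOX, higher by 0.62 (limma adjusted p = 0.00627), where the NLRP4 arrays stood at 8.80 to 9.06 and the vector arrays at 9.35 to 9.98.

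Of the lower genes, MX2 was at −0.63 in both comparisons with the NLRP4 line (limma adjusted p = 0.0139 and 0.0154). The first call of MX2 was lost without NOD1_noDOX replicate 1 (−0.44) or 4 (−0.55) or in a fit of the 2 groups alone. The second was lost without NLRP4_DOX replicate 4 (−0.56) or NOD1_DOX replicate 3 (−0.54), with arrays centred on medians (−0.48) or with normalization over all probe sets (−0.53). XAF1 was lower by 0.34 without DOX (limma adjusted p = 0.0421), a call that ended under 4 of 9 alternatives and without NLRP4_noDOX replicate 1, 2, 3 or 4 or NOD1_noDOX replicate 2 or 4 (−0.35 to −0.23), and by 0.62 with DOX (limma adjusted p = 0.000429). Over the 4 comparisons with the NOD1 line, 27 members were called at least once. The 18 called in none were OASL, EIF2AK2, IFIH1, IFIT3, GBP2, ISG15, USP18, HERC6, IRF1, IRF7, IRF9, SP110, TRIM5, PARP14, RSAD2, PLSCR1, LGALS3BP and ISG20.

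The NLRP4 line did not differ from the vector line in any member by the test. With limma, 0 of 45 members were called without DOX, where 0.0163% of all genes were, and 0 with DOX, where 0.038% were. At an unadjusted p under 0.05 there were 6 of 45 members without DOX and 8 of 45 with DOX. Of 18417 genes 913 (4.96%) and 1126 (6.11%) had such a p. Of 45 members, 11 had values above 0 without DOX and 10 with DOX, and the medians were −0.10 and −0.11, with the medians of all genes within 0.01 of 0. The lowest adjusted p was that of SAMD9L with DOX, at −0.78 (limma adjusted p = 0.119), which stood at 9.98, 9.35, 9.72 and 9.76 in the vector arrays and 8.89, 8.93, 8.80 and 9.06 in the NLRP4 arrays. With array weights SAMD9L was the 1 member called (−0.77, limma adjusted p = 0.0152). SAMD9L, HERC5, IFIH1, PARP14 and IFI27 lay wholly below the vector arrays with DOX, 11.1% of members against 2.63% of all genes, and 0 lay wholly above, where 2.64% of all genes did. Without DOX IFIH1 and BST2 lay wholly below, 4.44% of members against 1.46% of all genes, and 0 wholly above, against 1.41%.

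DOX for 6 h asks whether the module responds to the induced receptor. In no line did any member pass the test. The adjustment is over all genes, so a call needs a smaller unadjusted p where few genes differ. Calls here and those of the NOD1 line against the other lines thus rest on unlike cutoffs. In the NOD1 line 0 of 45 members were called (0.0109% of all genes). At an unadjusted p under 0.05 there were 8 of 45 members and 1062 of 18417 genes (5.77%). In the NLRP4 line 0 were called (0.0163%), with 5 of 45 members and 1482 of 18417 genes (8.05%) at that p. In the vector line 0 were called (0%), with 2 of 45 members and 622 of 18417 genes (3.38%) at that p. The members' medians were 0.11, 0.01 and 0.02, and 32, 25 and 27 of 45 had values above 0. Over all genes the medians lay within 0.01 of 0.

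SAMD9 had the lowest p in the NOD1 line, at 0.67 (SE 0.15, limma adjusted p = 0.249), followed by DDX60 at 0.36 (SE 0.11, limma adjusted p = 0.535) and OAS2 at 0.50 (SE 0.17, limma adjusted p = 0.692). SAMD9 and DDX60 were both low in the NOD1 line, and their DOX arrays there did not overlap their uninduced arrays. The difference from the vector line went from −1.81 without DOX to −1.22 with DOX for SAMD9, but only from −0.87 to −0.76 for DDX60. In the vector line SAMD9 stood at a mean of 10.91 without and 10.99 with DOX, and DDX60 at 9.46 and 9.72. IFIT2 was the other member without overlap in the NOD1 line, at 7.17, 7.56, 7.26 and 7.76 with DOX and 6.91, 6.70, 6.91 and 7.10 without. These 3 are 6.67% of members, against 1.02% of all genes with DOX arrays wholly above, and 0 members lay wholly below (1.33% of all genes). In the NLRP4 line IRF7, BST2 and IFI44L lay wholly above (6.67% of members, 2.64% of all genes) and HERC5 wholly below (2.22%, 2.5%), and in the vector line 0 lay above (1.18%) and 0 below (1.52%). In the NLRP4 line the lowest p values were those of IRF7 at 0.21, IFI6 at −0.33 and RIGI at −0.35, with limma adjusted p from 0.524 to 0.551. In the vector line they were those of DDX60 at 0.26, OASL at 0.23 and IFIT2 at −0.41, each with a limma adjusted p = 1.00.

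Differences between the lines' DOX effects were tested as well, and 0 members were called in each of the 3. Of all genes 0.00543%, 0.00543% and 0.0109% were called for NOD1 minus vector, NLRP4 minus vector and NOD1 minus NLRP4. In the same order, 5, 3 and 6 of 45 members had an unadjusted p under 0.05. So had 745, 906 and 1475 of 18417 genes (4.05%, 4.92% and 8.01%). The members with the lowest p for NOD1 minus vector were IFIT2 at 0.95, SAMD9 at 0.59 and IFI35 at −0.54. For NLRP4 minus vector they were DDX60 at −0.38, HERC5 at −0.46 and RIGI at −0.41, and for NOD1 minus NLRP4 they were SAMD9 at 0.80, HERC5 at 0.67 and DDX60 at 0.49. The lowest limma adjusted p among these was 0.386, for SAMD9. A p that misses the threshold does not show that the members respond alike.

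**Figure D3:**
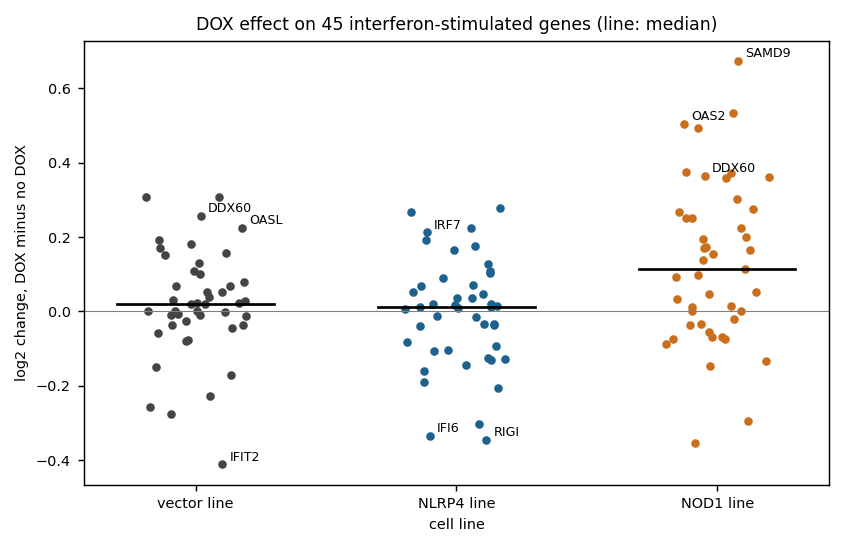
Each point is the log2 change with DOX of 1 of 45 members within a line, with the median as a line and the 3 members of lowest p named. The medians stand at 0.02 in the vector line, 0.01 in the NLRP4 line and 0.11 in the NOD1 line, and SAMD9 is the highest point at 0.67.

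The genes that make and carry the interferon signal were described from lists chosen by name. Between the NOD1 and vector lines 24.9% of all genes were called without DOX and 25.8% with DOX. Of 16 measured interferon genes, IFNK was the 1 called against the vector line, lower by 0.37 without DOX (limma adjusted p = 0.0219) and by 0.34 with DOX (limma adjusted p = 0.0329), at levels below 7.80. The first IFNK call was lost when vector_noDOX replicate 3, vector_noDOX replicate 4, NOD1_noDOX replicate 2 or NOD1_noDOX replicate 3 was left out (−0.35 to −0.30), and the second without vector_DOX replicate 2 or 3 or NOD1_DOX replicate 1, 2 or 4 (−0.35 to −0.28). IFNB1, the interferon made first by many cells, had a mean of 5.89 over all arrays, below that 25th percentile.

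Among 6 receptor genes 1 was higher and 1 lower in both comparisons, 33.3% against 24.9% and 25.8% of all genes. IFNAR1, the signalling chain of the type I receptor, stood at 11.77, 11.72, 11.72 and 11.74 in the uninduced vector arrays and at 11.03, 10.59, 11.22 and 10.87 in the uninduced NOD1 arrays. With DOX the values were 11.80, 11.85, 11.70 and 11.80 in the vector line and 11.08, 10.92, 10.82 and 10.92 in the NOD1 line. The lines did not overlap. IFNAR1 was lower by 0.81 (limma adjusted p = 1.34e-06) and 0.85 (limma adjusted p = 6.35e-07). IL10RB, shared by the interferon lambda and interleukin 10 receptors, was higher by 0.40 (limma adjusted p = 0.00329) and 0.58 (limma adjusted p = 8.74e-05), and its uninduced call was lost with arrays centred on medians.

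Of 12 measured JAK-STAT genes and inhibitors 4 were higher and 2 lower in each comparison, 50% against 24.9% and 25.8% of all genes. JAK2, the kinase of the interferon gamma receptor, stood at 10.64, 10.51, 10.60 and 10.64 in the uninduced vector arrays and at 9.73, 9.37, 9.88 and 9.73 in the uninduced NOD1 arrays, with no overlap. It was lower by 0.92 (limma adjusted p = 1.15e-06) and 0.98 (limma adjusted p = 4.67e-07). STAT3 was higher by 0.77 (limma adjusted p = 5.36e-06) and 0.86 (limma adjusted p = 1.20e-06). The phosphatase PTPN6 (SHP-1) was higher by 0.66 and 0.60, and PTPN2, a phosphatase that restrains JAK signalling, was lower by 0.46 and 0.49.

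Upstream of interferon, 5 of 20 sensors, adaptors and kinases were higher and 2 lower without DOX (35% called), and 4 higher and 1 lower with DOX (25%), near the background with DOX. STING1, the adaptor of cytosolic DNA sensing, was higher by 0.51 and 0.38, and the transcription factor IRF3 by 0.33 and 0.38. The kinase TBK1, which phosphorylates IRF3, was lower by 0.81 with DOX. IFI16 was lower by 0.47 without DOX (limma adjusted p = 0.00212), a call lost in the values as deposited. Genes were named by lowest p in each comparison, so a value given for 1 setting does not mark a difference between settings. STING1 with DOX was not called without the 4 dimmest arrays. TRAF3 was higher without DOX (0.46, limma adjusted p = 0.00952), a call lost without NOD1_noDOX replicate 2 (0.37), without the 4 dimmest arrays or in a fit of the 2 groups alone.

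Of 55 further interferon-stimulated genes measured outside the module, 16 were higher and 4 lower without DOX (36.4%, against 24.9% of all genes). With DOX 19 were higher and 7 lower (47.3%, against 25.8%). The medians were 0.17 and 0.18, against 0.03 and 0.02 over all genes. The immunoproteasome subunit PSMB8 was higher by 0.84 (limma adjusted p = 1.36e-05) and 0.96 (limma adjusted p = 2.34e-06), and the antibody receptor TRIM21 by 1.05 and 1.22. GBP5, a guanylate-binding protein, was higher by 1.41 with DOX and IFITM2 by 0.70. Without DOX TRIM25 was higher by 0.64 and the nuclear body protein SP100 was lower by 0.67. For GBP5, IFITM2, TRIM25 and SP100 the other setting is not given, because genes were named by lowest p in each comparison.

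**Figure D4:**
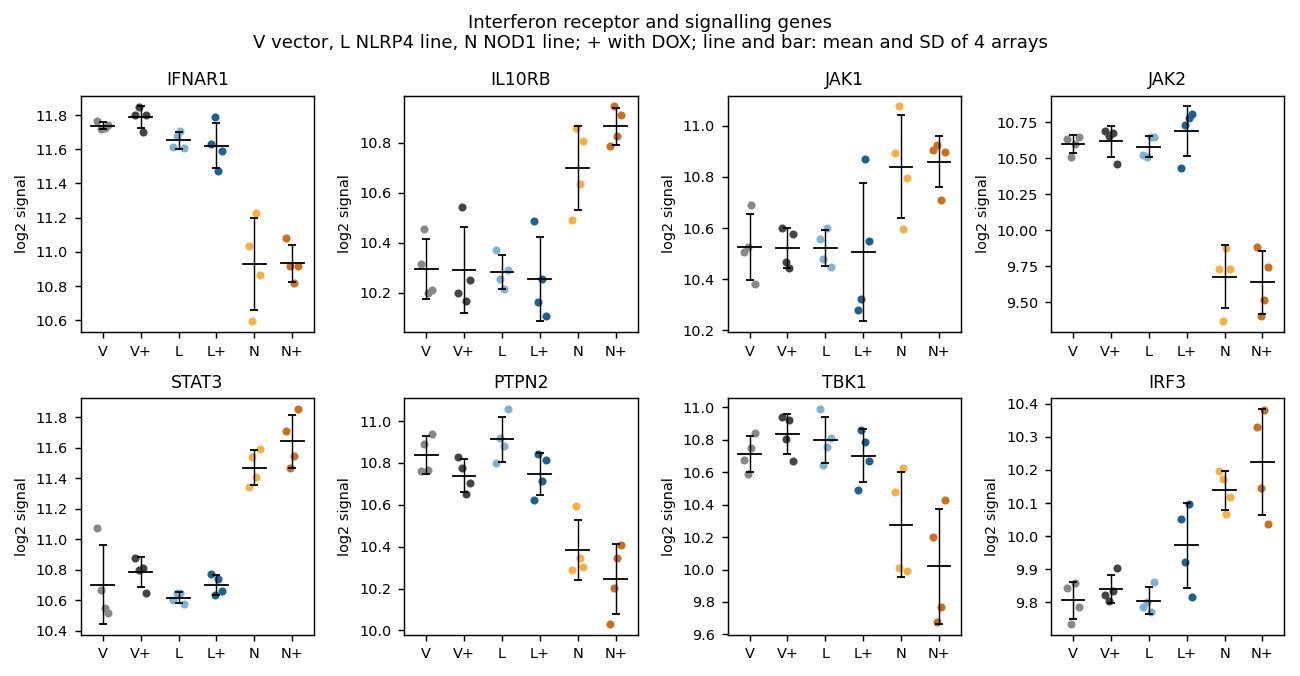
Panels give the log2 signal in the 4 arrays of each group for 8 genes of interferon reception and signalling, with the mean and SD as line and bar and the groups lettered as in the plot of neighbouring genes. IFNAR1 and JAK2 are lower in all 8 NOD1-line arrays than in any other array, and STAT3 is higher.

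Markers of cell identity moved with the line. Of 11 measured monocytic markers, 8 were higher in the NOD1 line without DOX (72.7%, against 13% of all genes). With DOX 7 of these markers were higher (63.6%, against 13.6%), and 0 were lower in either setting. Their mean log2 level ran from 9.96 to 10.03 in the uninduced NOD1 arrays and from 9.78 to 10.07 in those with DOX, against 9.41 to 9.61 over the 16 arrays of the other lines. EPCAM, an epithelial surface protein, was lower, at a mean of 7.12 in uninduced NOD1 arrays and 9.01 in uninduced vector arrays. It varied widely, at 7.07, 7.81, 6.38 and 7.22 in the former and 7.70, 9.52, 8.93 and 9.90 in the latter, with overlap. With DOX its groups did not overlap. KRT8 was lower with DOX (−0.36), and the values of KRT8, KRT18, KRT19 and CDH1 without DOX lay between −0.22 and 0.11, with none called. The mean of the 5 epithelial markers, in which EPCAM had the largest difference, ran from 7.72 to 8.14 in the NOD1 line and from 8.17 to 8.67 in the others. T cell markers averaged 6.99 to 7.30 per array and erythroid markers 7.12 to 7.54, below the 25th percentile in every group. B cell markers averaged 7.93 to 8.12. Against the vector line limma called 0 of the 4 T cell, 4 B cell and 3 erythroid markers (24.9% and 25.8% of all genes). At an unadjusted p under 0.05 there were 1, 0 and 1 of them without DOX and 0 of each with DOX. Of 18417 genes 6304 had such a p without DOX and 6387 with DOX. The part of these shifts in the module's difference was not tested.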

How the data were processed

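Total RNA of 24 wells was measured on 24 arrays. The deposited table gives a log2 signal for each probe set. The submitters' processing notes name RMA and the package oligo. Versions, order and genome build: not given in the sources used here. Of 33297 probe sets, 19460 carry 1 gene symbol, 1754 several and 12083 none. The probe set of highest mean was kept for each of 18417 genes, and the table was quantile-normalized. Limma 3.58.1 in R 4.3.3 (lmFit, eBayes) fitted 6 group means over all arrays, with Benjamini-Hochberg adjusted p under 0.05 over all genes as a call.

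The members and the gene lists were chosen with earlier results of these data known. Genes named by rule are the called members of lowest p, up to 6 in each direction per comparison of lines, the 3 members of lowest p per DOX comparison where none is called, and up to 4 called genes per pathway list. Every other member is given by its value because the list is short. The fit was tested on simulated data with independent noise and few changed genes. In the comparisons with the NOD1 line far more genes were called, and the wells may not be independent. That test therefore does not show how reliable those calls are. Leaving out the 4 dimmest arrays was an alternative chosen after seeing the data. The number of arrays limits the precision.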

Additional observations from a re-analysis of the deposited data

Results flagged for a closer look

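In 12 of 270 sets of 4 arrays (45 members in 6 groups, 4.44%) the highest or lowest array stood apart from the other 3 by Dixon's criterion, where chance gives about 1 in 20. In vector_noDOX replicate 1, IRF9 was low at 8.11, PARP9 at 7.89 and PARP14 at 10.09, while ISG20 was high at 9.12. In NOD1_DOX replicate 4, IFIT1 was high at 8.77 and RSAD2 at 9.00, and in NOD1_DOX replicate 3 MX2 was low at 9.25. IFIT5 was low at 6.56 in NOD1_noDOX replicate 1. In vector_DOX replicate 3, LGALS3BP was low at 7.89 and IFI44L high at 7.30. LGALS3BP was high at 8.57 in NLRP4_DOX replicate 3, and IFI35 at 9.64 in NLRP4_DOX replicate 2.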

How the results depend on the processing

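For NOD1 against vector without DOX the count of members called was 21 and fell to 13 (8 higher, 5 lower) when only the 2 groups were fitted. Its split of 14 higher and 7 lower became 15 higher and 4 lower with no further normalization and 10 higher and 8 lower with array weights. For the NLRP4 line against the vector line with DOX the count of 0 became 1 with array weights. The other counts stayed within 1.5 times of their value under the alternatives run. Leaving out 1 array at a time gave 17 to 23 members for NOD1 against vector without DOX, 19 to 21 with DOX, 20 to 23 for NOD1 against NLRP4 without DOX and 21 to 24 with DOX, and 0 in each other comparison. Of 865 values of named genes under alternatives 842 kept their side of the threshold, 22 lost a call, 1 gained one and 0 changed sign, and of 848 with an array left out 20 lost a call. Most named genes were picked by lowest p, and uncalled values that stayed uncalled count as kept, so these counts do not describe the other members. The uninduced calls of OAS2, OAS3, IFIT2, PARP9, BST2, IFI44L, CMPK2 and EPSTI1 against the vector line lie outside them. In the values as deposited the median of all genes shifted by −0.21 for NOD1 against NLRP4 with DOX and by 0.26 for the DOX effect in the NLRP4 line. No paired analysis was possible because the labels number the arrays consecutively over the series, so no 2 groups share a number.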
